A study of Homo sapiens with 36 samples.

Results

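The genes described here serve the interferon response and the presentation of antigen on MHC class I. They were taken from an RNA sequencing series of LNCaP cells, a human prostate cancer cell line, treated with inhibitors of the cell-cycle kinase CDK4. The list names 52 symbols, which were matched through their GENCODE v44 identifiers. DDX58 and RIGI are names of the same gene, so the list held 51 of the 29872 genes in the table of normalised read counts. Of these, 14 belong to class I presentation, 9 are receptors or transcription factors and 28 are interferon-stimulated genes.

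The series held 12 groups of 3 libraries each. LNCaP cells received vehicle, AU2-94 at 1 or 2 µM, atirmociclib at 1 or 2 µM, or ribociclib at 2 µM, and were harvested after 24 h or 72 h. AU2-94 and atirmociclib are CDK4 inhibitors, and ribociclib inhibits CDK4 and CDK6. Drugs were added 24 h after seeding, and wells for the 72 h harvest were seeded more thinly, so duration of culture and density cannot be told apart. The labels attach a dose of 2 µM to the vehicle wells too, without naming a drug there, and they number the replicates of each group. No interferon is stated to have been added to any group.

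The values were normalised by the authors and summed to between 20675156 and 22692555 per library, so the sequencing depth of a library is unknown and its share of the error at low values cannot be given. No pair of libraries held identical values. All 7 LNCaP markers reported, among them KLK3, FOLH1 and HOXB13, exceeded 10 normalised counts. They moved with treatment: 7 of 7 were higher in each of the 5 treatments at 24 h and 6 of 7 at 72 h, and their summed level was 90340 to 96010 in vehicle and 122400 to 137800 in treated libraries at 24 h. None of 4 leukocyte markers (PTPRC, CD3E, CD14, ITGAM) had a mean above 10, and their summed level lay between 0 and 31.5 per library. Of the fibroblast markers COL1A1 and PDGFRB exceeded 10 while COL1A2 and DCN did not, and of the endothelial markers VWF did while PECAM1 and CDH5 did not. VWF was also higher in each treatment at 72 h (0.61 to 1.67 on the log2 scale), and COL1A1 was lower in 3 of 5 treatments at 24 h (-0.74 to -0.24 over the 5). Their part in the results was not tested.

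Interferons of type I and type II bind paired receptor chains, which act through JAK kinases and STAT proteins. STAT2 and IRF9 form part of the complex that binds interferon-stimulated response elements (ISREs) in the promoters of antiviral genes, whose products sense viral RNA, degrade it or block its translation. The class I pathway cuts proteins in the proteasome, moves the peptides through the TAP transporter, trims and loads them in the endoplasmic reticulum and shows them at the cell surface on a heavy chain bound to β2-microglobulin. Many of its genes respond to interferon too, through ISREs and through the class I transactivator NLRC5, and so does CD274, which encodes the T-cell inhibitory ligand PD-L1.

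The promoters of 7 members are shown because these genes represent the behaviours described further on: class I genes that were higher (HLA-B, B2M) or varied (TAP1), antiviral genes that were higher at 72 h (IFIT1, IFIT3), an antiviral gene that was lower throughout (OAS3), and CD274. Each run is 300 bases from RefSeq, assembly GRCh38.p14, read 5′ to 3′ on the strand of the gene from 250 bases before its start to 50 after. Capitals mark matches to the ISRE core on either strand, which is GAAA, 2 bases of any kind and GAAA again.
HLA-B, chr6:31357130-31357429, minus strand: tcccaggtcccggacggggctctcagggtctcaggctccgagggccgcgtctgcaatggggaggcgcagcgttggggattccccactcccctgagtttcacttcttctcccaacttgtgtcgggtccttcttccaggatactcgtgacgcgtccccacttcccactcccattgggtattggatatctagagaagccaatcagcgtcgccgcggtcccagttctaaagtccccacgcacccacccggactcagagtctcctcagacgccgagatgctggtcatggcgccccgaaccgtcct
B2M, chr15:44711267-44711566, plus strand: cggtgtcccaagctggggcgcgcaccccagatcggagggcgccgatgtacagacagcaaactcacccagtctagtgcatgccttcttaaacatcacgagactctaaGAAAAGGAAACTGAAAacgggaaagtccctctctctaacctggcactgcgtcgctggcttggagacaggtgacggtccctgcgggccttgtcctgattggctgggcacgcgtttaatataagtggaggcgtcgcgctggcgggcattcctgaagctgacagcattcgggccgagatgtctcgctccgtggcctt
TAP1, chr6:32853655-32853954, minus strand: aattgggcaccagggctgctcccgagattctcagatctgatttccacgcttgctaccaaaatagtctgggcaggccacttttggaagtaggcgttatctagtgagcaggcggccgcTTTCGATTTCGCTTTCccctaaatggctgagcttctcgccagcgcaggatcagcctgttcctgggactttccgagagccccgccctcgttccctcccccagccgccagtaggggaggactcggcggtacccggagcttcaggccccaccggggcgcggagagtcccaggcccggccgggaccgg
IFIT1, chr10:89392373-89392672, plus strand: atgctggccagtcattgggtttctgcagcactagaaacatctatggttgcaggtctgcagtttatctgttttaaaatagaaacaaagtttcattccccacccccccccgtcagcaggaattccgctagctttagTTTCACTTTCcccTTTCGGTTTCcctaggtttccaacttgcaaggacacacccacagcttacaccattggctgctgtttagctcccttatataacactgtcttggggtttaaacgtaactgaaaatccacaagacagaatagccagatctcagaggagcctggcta
IFIT3, chr10:89327747-89328046, plus strand: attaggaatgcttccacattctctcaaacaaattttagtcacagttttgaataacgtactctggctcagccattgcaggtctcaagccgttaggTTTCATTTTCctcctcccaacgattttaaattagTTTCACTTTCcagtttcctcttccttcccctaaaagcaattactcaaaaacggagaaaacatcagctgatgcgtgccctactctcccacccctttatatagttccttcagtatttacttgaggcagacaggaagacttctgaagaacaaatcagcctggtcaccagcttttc
OAS3, chr12:112938224-112938523, plus strand: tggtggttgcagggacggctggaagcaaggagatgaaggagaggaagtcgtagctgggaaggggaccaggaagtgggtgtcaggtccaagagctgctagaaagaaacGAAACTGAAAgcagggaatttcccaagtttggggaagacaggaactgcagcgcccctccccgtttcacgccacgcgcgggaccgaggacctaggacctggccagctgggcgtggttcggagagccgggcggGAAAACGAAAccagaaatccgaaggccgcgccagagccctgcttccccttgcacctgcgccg
CD274, chr9:5450292-5450591, plus strand: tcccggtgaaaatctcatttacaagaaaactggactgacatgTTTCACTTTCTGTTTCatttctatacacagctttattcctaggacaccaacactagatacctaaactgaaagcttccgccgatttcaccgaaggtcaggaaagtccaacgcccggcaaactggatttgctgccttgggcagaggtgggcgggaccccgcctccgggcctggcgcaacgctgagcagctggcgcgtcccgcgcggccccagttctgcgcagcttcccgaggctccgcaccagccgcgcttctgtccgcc

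A promoter was at hand for 42 of the 51 members. HLA-E, NLRC5, IFNAR2, IRF3, IRF7, IFIT2, IFITM2, OAS2 and USP18 had none in the table used. The ISRE core was found in 26 of the 42, against 3.65% of 27305 promoters of the same length. By role it was found in 7 of 12 class I promoters, in 0 of 6 promoters of receptors and factors and in 19 of 24 promoters of interferon-stimulated genes. The letters of a STAT site, TTCNNNGAA, were found in 10 of 42 (7.88% of all promoters), and a κB pattern, GGG and TTCC with 3 bases of any kind between, in 8 of 42 (6.47%). Of the usual E2F letters, TTTCCCGC was found in 3 of 42, IFNGR2, OAS3 and IFIH1 (1.66% of all promoters), and TTTGGCGC in 0 of 42 (0.659%). In OAS3 the E2F letters overlapped the ISRE core nearest to the start. The HLA-B window printed above held no exact match to the ISRE core, and near matches were not searched for. In B2M, TAP1 and CD274 the marked run is a pair of overlapping cores, and in IFIT1 and IFIT3 the cores stand apart. These matches describe letters in a fixed window and not measured binding.

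LNCaP cells expressed most of the list at low or moderate levels. A mean above 10 normalised counts over the 36 libraries was reached by 45 of 51 members, and 43 exceeded 10 in every group: 12 of 14 class I genes, 9 of 9 receptors and factors and 22 of 28 interferon-stimulated genes. In all 36 libraries singly, 40 members exceeded 10. Exon length was taken over the merged exons of all annotated transcripts of a gene, 17984 bases for MX1 and 2507 for HLA-C. Levels per kb therefore depend on the annotation and are not levels of a single transcript. Divided by exon length, the median class I gene stood at 94.7 normalised counts per kb in vehicle at 24 h and 95 at 72 h. The median receptor or factor stood at 87.4 and 100 per kb, and the median interferon-stimulated gene at 14.2 and 16.1 per kb. Over all genes tested, the medians of the same quantity were 80.7 and 77.3 per kb.

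Per kb and in vehicle at 24 h, HLA-C led the list with 732, followed by B2M with 698, ISG15 with 545, IFITM3 with 333 and TAPBP with 319. The same 5 genes led at 72 h, with 778, 662, 612, 385 and 293 per kb. HLA-C encodes a classical heavy chain, B2M the light chain, ISG15 a ubiquitin-like modifier and IFITM3 a membrane protein that restricts virus entry, and TAPBP encodes tapasin, which holds the heavy chain at the TAP transporter. The sensor OAS2 was lowest at 0.23 and 0.0875 per kb. The order of HLA-C and B2M rests on their exon lengths of 2507 and 3121 bases and was not tested. On the scale of normalised counts it was reversed. Vehicle libraries at 24 h held 1688, 2008 and 1807 for HLA-C and 2113, 2227 and 2194 for B2M, without overlap.

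**Figure D1:**
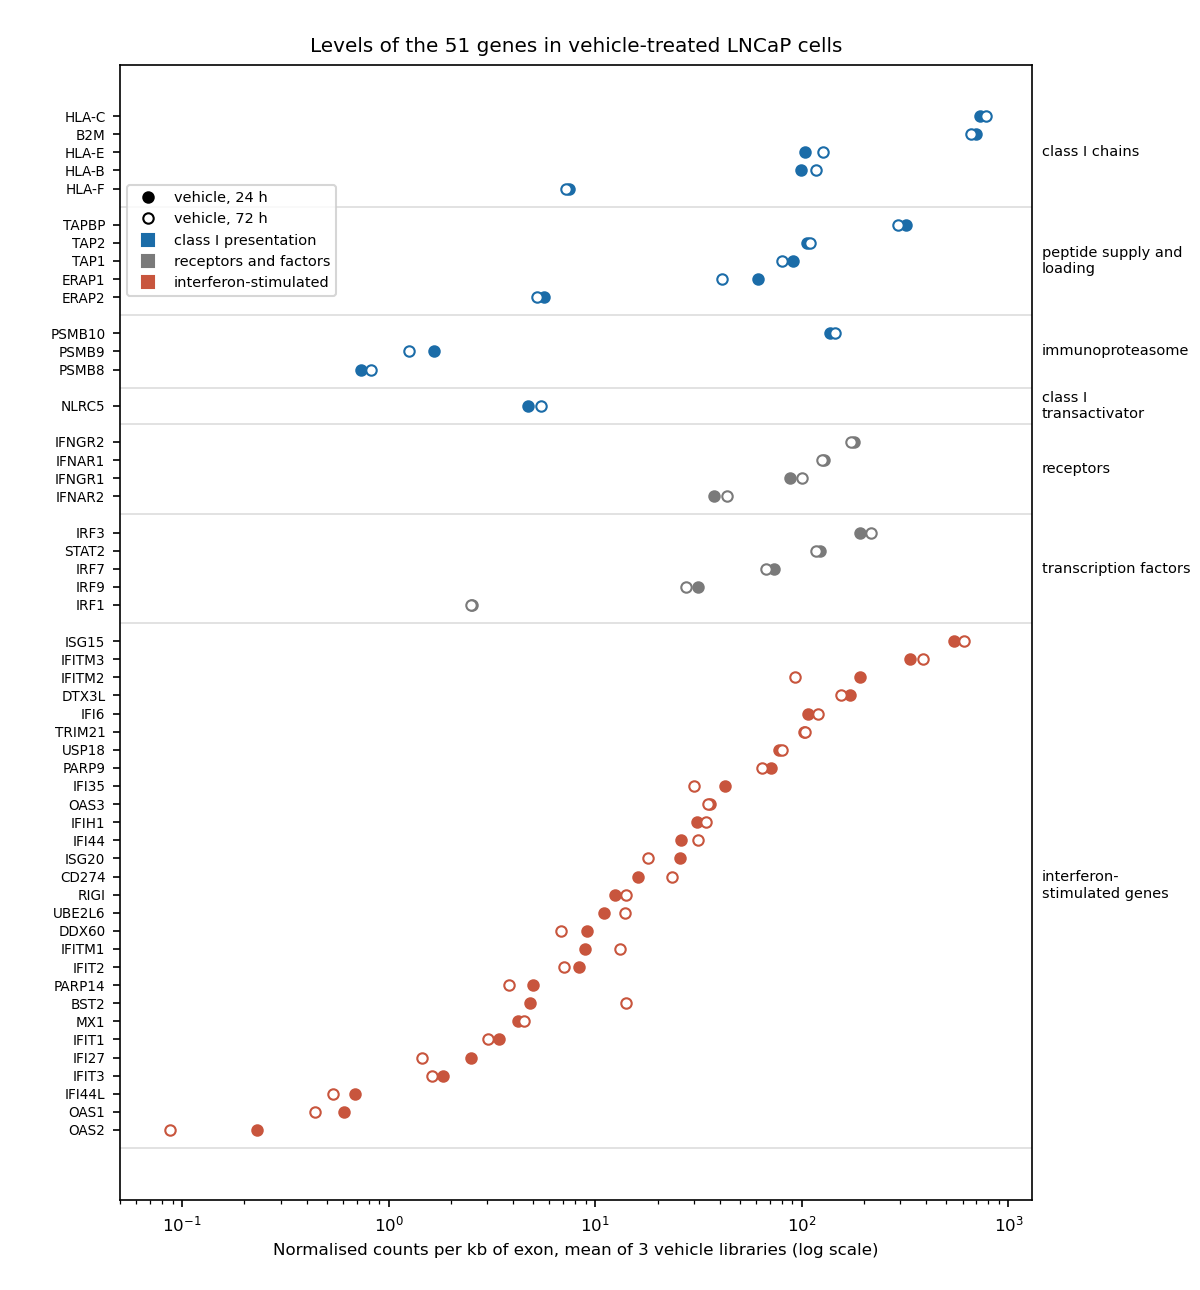
Level of each of the 51 genes in vehicle, in normalised counts per kb of exon on a log axis, by role, with filled points for the mean of 3 libraries at 24 h and open points for 72 h. The class I genes HLA-C and B2M stand highest at 732 and 698 per kb at 24 h, and OAS2 lowest at 0.23.

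Some members stayed near the floor of the assay. No group mean exceeded 10 normalised counts for PSMB8 (highest 7.48, ribociclib 24 h), PSMB9 (highest 9.18, 1 µM atirmociclib 24 h) and OAS2 (highest 5.86, 2 µM AU2-94 72 h). PSMB8 and PSMB9 encode 2 of the 3 catalytic subunits that interferon exchanges into the proteasome, and the remaining subunit, PSMB10, was at a mean of 270 over all libraries. IFI27, IFI44L, IFIT3, OAS1 and BST2 exceeded 10 in some groups only, in 6, 2, 10, 9 and 2 of the 12 groups respectively. Their highest group means were 13 for IFI27 and 11.8 for IFI44L. IFIT3 reached 33.4, OAS1 24.7 and BST2 15.5.

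At 24 h the class I chains HLA-B, HLA-C and B2M and the PD-L1 gene CD274 were higher in every treatment and OAS3 and IRF9 lower, while the antiviral genes IFIT1, IFIT2, IFIT3 and MX1 passed in none. A gene was called when limma, run on log2(normalised count + 1) over all 16137 genes tested at 24 h, gave an adjusted p of at most 0.05. The filter of 10 normalised counts in 3 or more libraries was passed by 47 members, and PSMB8, PSMB9, OAS2 and BST2 were not tested. The 5 comparisons share their vehicle libraries and are therefore not independent of each other. The libraries are stated to be biological replicates, and in bulk RNA fewer expressing cells and less RNA per cell cannot be told apart.

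In 1 µM AU2-94 at 24 h, 16 of 47 members were higher and 5 lower, against 14.3% and 13.5% of all genes. The counts were 16 and 4 in 2 µM AU2-94 (all genes 16.0% and 14.9%), 12 and 7 in 1 µM atirmociclib (16.6% and 15.4%), 12 and 6 in 2 µM atirmociclib (18.6% and 16.2%) and 14 and 2 in ribociclib (16.8% and 15.2%). In each comparison the share of members higher was above the share of all genes higher, and in each comparison the share lower was below or near its counterpart. The members were chosen with earlier results of these data known, so these shares are no test of the list. The median log2 fold change of the members was 0.24, 0.25, 0.08, 0.06 and 0.20 in the same order, against medians between -0.003 and 0.005 over all genes. Without vehicle replicate 1 the count of lower members was 3 in either dose of atirmociclib, and without vehicle replicate 3 it was 4 in ribociclib. In 1 µM AU2-94 it was 2 or 3 without any library compared other than replicate 2 of AU2-94, and 2 with no filter on low values. In 2 µM atirmociclib it was 3 with quantile normalisation. Averaged over the 5 treatments, 16 members were higher and 5 lower (20.7% and 19.2% of all genes).

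By role, 5 of the 12 tested class I genes were higher in each of these comparisons, TAP1 taking the place of TAPBP in atirmociclib, with medians from 0.13 to 0.27. Of 9 receptors and factors 1 was higher in each (11.1%, below the share of all genes), with medians from -0.14 to 0.06. Of 26 interferon-stimulated genes 10 were higher in either dose of AU2-94, 6 in either dose of atirmociclib and 8 in ribociclib, with medians of 0.28, 0.40, 0.10, 0.05 and 0.23. Lower in the same order were 1, 1, 2, 1 and 0 class I genes and 1, 1, 2, 1 and 1 receptors and factors. Of the interferon-stimulated genes 3, 2, 3, 4 and 1 were lower. The shares of all genes are those given above for each comparison. Passing in all 5 treatments at once were 10 members in the upward direction and 2 downward, against 9.2% and 7.82% of all genes. The 10 were HLA-B, HLA-C, B2M, PSMB10, IFNGR2, IFITM2, IFITM3, PARP9, TRIM21 and CD274, and the 2 were IRF9 and OAS3.

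**Figure D2:**
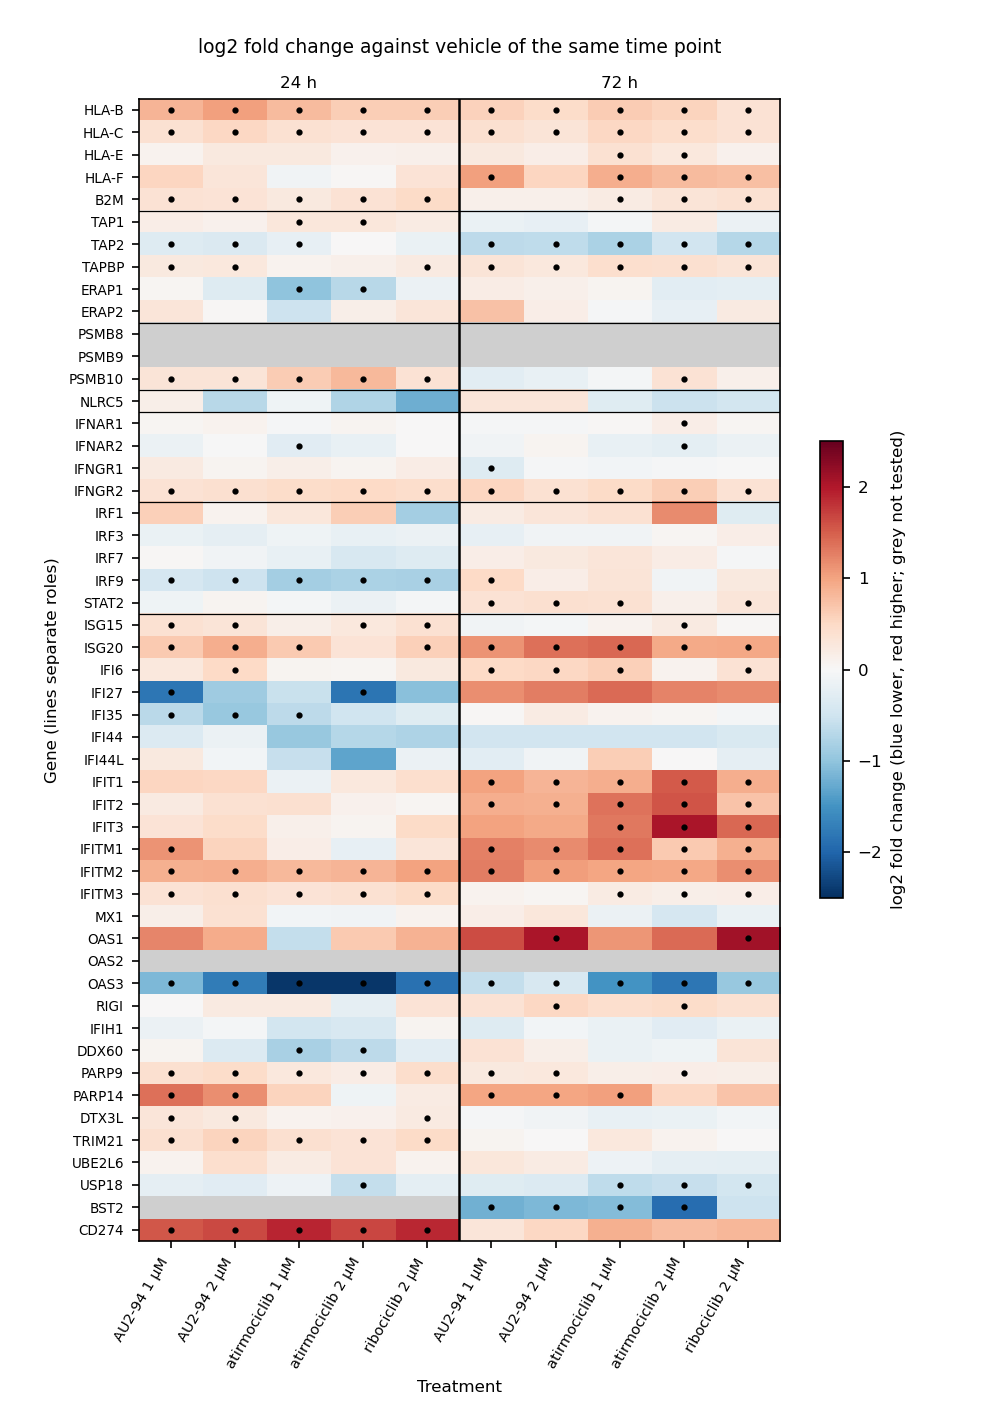
Log2 fold change against vehicle of the same time point for 51 genes (rows, by role) in 5 treatments at 24 h and 5 at 72 h (columns), with a dot on values called at an adjusted p of 0.05 or less and grey for genes not tested. HLA-B, HLA-C, IFNGR2 and IFITM2 are higher and OAS3 lower, with a dot, in all 10 columns.

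HLA-B, a classical heavy chain on chr6, had the largest mean effect among the class I genes at 24 h (0.78 on the log2 scale). Its normalised counts were 514, 396 and 466 in vehicle, 764, 814 and 874 in 1 µM AU2-94 and 959, 932 and 907 in 2 µM AU2-94. They were 903, 724 and 769 in 1 µM atirmociclib, 866, 665 and 600.2 in 2 µM atirmociclib and 686, 624 and 788 in ribociclib. Every treated library lay above every vehicle library. The log2 fold changes were 0.84, 1.03, 0.80, 0.62 and 0.61 (SE 0.13; adjusted p 5.18e-06 to 0.00106), the highest in 2 µM AU2-94.

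HLA-C moved in the same direction from a higher level. Vehicle libraries held 1688, 2008 and 1807 normalised counts and the 15 treated libraries 2071 to 2728, with no overlap. The log2 fold changes were 0.35 to 0.52 (SE 0.07; adjusted p 2.05e-05 to 0.000838). For B2M, the light chain shared by all class I molecules, vehicle libraries held 2113, 2227 and 2194 and treated libraries 2340 to 3241, again without overlap. Its log2 fold changes were 0.25 to 0.47 (adjusted p 4.34e-05 to 0.00962), and the lowest of them, in 1 µM atirmociclib, lost its call when replicate 3 of that group was left out (0.20 to 0.32 over the omissions of 1 library at a time). Ranges in brackets beside other lost calls have the same meaning. Reads of HLA genes were mapped to a reference allele, so the levels of HLA-B and HLA-C depend on how closely the alleles of LNCaP match it. HLA-E, a non-classical chain that engages NK-cell receptors, passed in 0 of 5 comparisons at 24 h with log2 fold changes of 0.09 to 0.24, and HLA-F likewise with -0.08 to 0.54. At an unadjusted p under 0.05, limma counted between 6 and 8 of the 12 class I genes in these 5 comparisons, against 38.1% to 43.7% of all genes.

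The genes that supply and load peptides did not move together. TAPBP was higher in 3 of 5 treatments at 24 h, at 0.24 and 0.26 on the log2 scale in AU2-94 at 1 and 2 µM and 0.23 in ribociclib, from 2133, 2065 and 2156 normalised counts in vehicle. TAP1 was higher in both doses of atirmociclib, with log2 fold changes of 0.28 (adjusted p = 0.00923) and 0.28 (adjusted p = 0.00824). The call at 1 µM was lost without replicate 3 of that group (0.22 to 0.34). Its partner in the peptide transporter, TAP2, went the other way. TAP2 was lower in both doses of AU2-94 and in 1 µM atirmociclib, with log2 fold changes of -0.33, -0.37 and -0.20, whereas 2 µM atirmociclib gave 0.01. The call in 1 µM atirmociclib was lost without replicate 2 of that group or vehicle replicate 1 or 2 (-0.24 to -0.17).

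ERAP1, which trims peptides in the endoplasmic reticulum, held 466, 566 and 429.6 normalised counts in vehicle and 248, 205 and 276 in 1 µM atirmociclib at 24 h, without overlap. Its log2 fold change there was -1.0 (SE 0.25; adjusted p = 0.00429). In 2 µM atirmociclib it was -0.69 (adjusted p = 0.038), a call lost without replicate 2 of that group or without vehicle replicate 1 or 2 (-0.88 to -0.39). The related ERAP2 and the transactivator NLRC5 passed in 0 of 5 comparisons, with log2 fold changes of -0.51 to 0.31 and -1.23 to 0.14, and NLRC5 averaged 56.5 normalised counts over all libraries.

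PSMB10, the immunoproteasome subunit with a measurable level, rose in every treatment at 24 h. Vehicle libraries held 230.4, 224 and 212 normalised counts and 2 µM atirmociclib 418, 372 and 389, with the other treated libraries between 266 and 392 and all of them above vehicle. The log2 fold changes were 0.32, 0.33, 0.63, 0.82 and 0.36 (SE 0.09; adjusted p 1.76e-06 to 0.0159), highest in the 2 doses of atirmociclib. The call in 1 µM AU2-94 was lost without vehicle replicate 3 (0.29 to 0.35).

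Among the receptor chains, IFNGR2, the signalling chain for interferon-γ, was the sole member to rise in every treatment at 24 h. It held 427, 419.7 and 506 normalised counts in vehicle and 515 to 684 in treated libraries, which did not overlap. The log2 fold changes were 0.37 to 0.49 (SE 0.09; adjusted p 0.000491 to 0.00623). IFNGR2 shares 380 exon bases, 15% of its exons, with TMEM50B on the opposite strand, whose own log2 fold changes were 0.23 to 0.34 at 24 h. The strand setting of the authors' counting is not given in the sources used here, so reads of the shared stretch cannot be assigned. The ligand-binding chain IFNGR1 and the type I chain IFNAR1 passed in 0 of 5 comparisons at 24 h, IFNAR1 with log2 fold changes of -0.03 to 0.09 at a mean of 2025 normalised counts. IFNAR2 passed in 1 µM atirmociclib alone (-0.28, adjusted p = 0.0432), and that call was lost without any of 5 of the 6 libraries compared, the exception being replicate 1 of the treated group (-0.33 to -0.21).

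IRF9, the DNA-binding partner of STAT2, fell in every treatment at 24 h. Vehicle libraries held 202, 199 and 206 normalised counts, 1 µM AU2-94 161, 137 and 156, 1 µM atirmociclib 108, 106 and 123 and ribociclib 117, 108 and 121. No treated library reached the lowest vehicle library. The log2 fold changes were -0.42, -0.52, -0.85, -0.80 and -0.81 (SE 0.15; adjusted p 0.000207 to 0.0407). The smallest, in 1 µM AU2-94, had an adjusted p of 0.0407 and was no longer called with the replicate number as a block (adjusted p = 0.0566) or without any 1 of the 6 libraries compared (-0.47 to -0.35). STAT2 itself, at a mean of 1215 normalised counts, gave -0.14 to 0.07 and passed in 0 of 5, as did IRF3 (-0.11 to -0.22), IRF7 (-0.40 to 0.02) and IRF1 (-0.84 to 0.61). At an unadjusted p under 0.05, limma counted 2 or 3 of the 9 receptors and factors in these comparisons, against 38.1% to 43.7% of all genes. IRF3 shares 734 exon bases with BCL2L12 and IRF1 shares 2805 with IRF1-AS1, each on the opposite strand.

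OAS3, an antiviral enzyme that makes the activator of RNase L, had the lowest mean effect of the tested members at 24 h (-1.92 on the log2 scale). The gene lies at chr12:112938051-112976460. Its normalised counts were 679, 657 and 605 in vehicle, 326, 239 and 339 in 1 µM AU2-94, 200.4, 192 and 185 in 2 µM AU2-94, 132, 106 and 118 in 1 µM atirmociclib, 147, 116 and 97.2 in 2 µM atirmociclib and 186, 202 and 144 in ribociclib. No treated library reached the lowest vehicle library, and no library in either dose of atirmociclib reached the lowest in either dose of AU2-94. On the log2 scale the changes were -1.12, -1.74, -2.44, -2.44 and -1.87 (SE 0.16; adjusted p 1.16e-09 to 4.63e-05), or 2.17 to 5.43-fold lower. Its neighbour OAS1 held 3.69, 8.61 and 11.5 normalised counts in vehicle and passed in 0 of 5 at 24 h (-0.59 to 1.23).

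CD274 rose in every treatment at 24 h and had the largest upward fold change of the list there. The gene lies at chr9:5450503-5470566. Vehicle libraries held 74.4, 30.4 and 93.9 normalised counts, 1 µM AU2-94 134, 188 and 220.4, 2 µM AU2-94 166, 168 and 248, 1 µM atirmociclib 218, 238 and 222, 2 µM atirmociclib 233, 244 and 125 and ribociclib 217, 228 and 224. The vehicle libraries spread widely, yet the highest stayed below the lowest treated library. In log2 units the fold changes were 1.55, 1.65, 1.90, 1.67 and 1.88 (SE 0.32; adjusted p 0.000146 to 0.00125).

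The IFITM genes, which encode membrane proteins that block virus entry, shared a direction in part. IFITM2 held 374, 281 and 268 normalised counts in vehicle and 496 to 634 in treated libraries, without overlap, and its log2 fold changes were 0.82 to 1.0 (SE 0.11; adjusted p 1.37e-06 to 1.36e-05). IFITM3 held 907, 951 and 979.8 in vehicle and 1113 to 1341 in treated libraries, with log2 fold changes of 0.34 to 0.47 (adjusted p 1.64e-05 to 0.000372). IFITM1 passed in 1 µM AU2-94 alone, from 9.86, 22.4 and 12.4 to 37.4, 25.1 and 33.9 normalised counts (1.12, SE 0.36, adjusted p = 0.0272). That call was lost without replicate 1 or 3 of vehicle or of the treated group (0.88 to 1.44). The transcripts of these 3 genes hold near-identical stretches of up to 277 bases at 98% identity or more, so reads from those stretches may have been split between them.

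PARP9 and its partner DTX3L, which together modify histones and viral proteins, rose modestly. PARP9 passed in all 5 treatments at 24 h with log2 fold changes of 0.41, 0.46, 0.26, 0.18 and 0.43. The value in 2 µM atirmociclib (adjusted p = 0.0446) was not called with the replicate number as a block (adjusted p = 0.0589), or without replicate 1 or 3 of that group or vehicle replicate 2 or 3 (0.12 to 0.22). DTX3L passed in 3 of 5, in AU2-94 at 1 µM (0.30) and 2 µM (0.25) and in ribociclib (0.22), the last not without replicate 3 of ribociclib (0.18 to 0.24). PARP14 of the same family passed in AU2-94 alone: vehicle libraries held 49.1, 49.5 and 55.2 normalised counts, 1 µM AU2-94 169, 119.7 and 122 and 2 µM AU2-94 161, 95.8 and 99.8. Its log2 fold changes there were 1.38 (adjusted p = 0.00264) and 1.16 (adjusted p = 0.0083), the latter not called without replicate 1 of 2 µM AU2-94 (0.92 to 1.29). In atirmociclib and ribociclib they were 0.55, -0.11 and 0.21.

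TRIM21, a cytosolic antibody receptor and ubiquitin ligase, rose in every treatment at 24 h, from 202, 174 and 218 normalised counts in vehicle to between 224 and 317 in treated libraries (0.35 to 0.56; adjusted p 0.00113 to 0.0238). Its calls in 1 µM AU2-94 and in both doses of atirmociclib were lost without vehicle replicate 2, in 1 µM atirmociclib also without replicate 1 of that group and in 2 µM atirmociclib without replicate 1 or 2 of that group. Without 1 library at a time the log2 fold change lay at 0.31 to 0.47 in 1 µM AU2-94, 0.31 to 0.53 in 1 µM atirmociclib and 0.27 to 0.43 in 2 µM atirmociclib. ISG15 was higher in 4 of 5 (0.14 to 0.39), the exception being 1 µM atirmociclib, and ISG20, an RNA exonuclease, in 4 of 5 (0.35 to 0.91), the exception being 2 µM atirmociclib. The ISG15 call in 2 µM atirmociclib was lost without replicate 1 of that group (0.22 to 0.31). The ISG20 calls other than that in 2 µM AU2-94 were lost without vehicle replicate 1 or 2, and without replicate 2 of 1 µM AU2-94, replicate 3 of 1 µM atirmociclib or replicate 1 of ribociclib (0.54 to 0.85, 0.48 to 0.84 and 0.49 to 0.79).

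Among the lower interferon-stimulated genes at 24 h, IFI35 passed in both doses of AU2-94 and in 1 µM atirmociclib, with log2 fold changes of -0.68, -0.94 and -0.65. The first and last of these calls were lost without vehicle replicate 1 or 2, without replicate 1 of 1 µM AU2-94 or without replicate 1 or 3 of 1 µM atirmociclib (-0.84 to -0.50 and -0.73 to -0.59). The helicase DDX60 passed in both doses of atirmociclib (-0.81 and -0.65), but vehicle replicate 1 was far above the other vehicle libraries (234, 131 and 109), and without it neither call held, nor without replicate 1 of either dose or replicate 2 of 2 µM (-1.04 to -0.49 and -0.88 to -0.33). USP18, which removes ISG15 from proteins, passed in 2 µM atirmociclib (-0.59, adjusted p = 0.00262). IFI27 fell from 11.5, 9.48 and 10.2 to 1.70, 2.3 and 2.66 normalised counts in 2 µM atirmociclib (-1.83, adjusted p = 0.0311) and to 0.335, 6.20 and 2.58 in 1 µM AU2-94 (-1.81, adjusted p = 0.0403). These are values near the floor. The first call was lost without any 1 of the 6 libraries compared (-1.93 to -1.71) and the second without any but replicate 2 of the treated group (-2.38 to -1.16).

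IFI6 passed in 2 µM AU2-94 alone at 24 h (0.50, adjusted p = 0.0186), not without replicate 2 or 3 of that group or of vehicle (0.43 to 0.65). IFIT1, IFIT2 and IFIT3, which bind viral RNA, passed in 0 of 5 at 24 h, with log2 fold changes of -0.15 to 0.54, 0.05 to 0.41 and 0.06 to 0.48. The GTPase gene MX1 gave -0.09 to 0.38, and the RNA sensors RIGI and IFIH1 gave -0.23 to 0.35 and -0.45 to 0.06. MX1 shares 562 exon bases with TMPRSS2 on the opposite strand, a gene at a mean of 13200 normalised counts that was itself 0.92 to 1.34 higher on the log2 scale, and reads of the shared stretch cannot be assigned to either. IFI44, IFI44L and UBE2L6 also passed in no treatment at 24 h. In all, 20 of the 47 tested members passed in none. In at least 1 treatment 18 members were higher and 9 lower, against 25.9% and 24.6% of all genes.

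**Figure D3:**
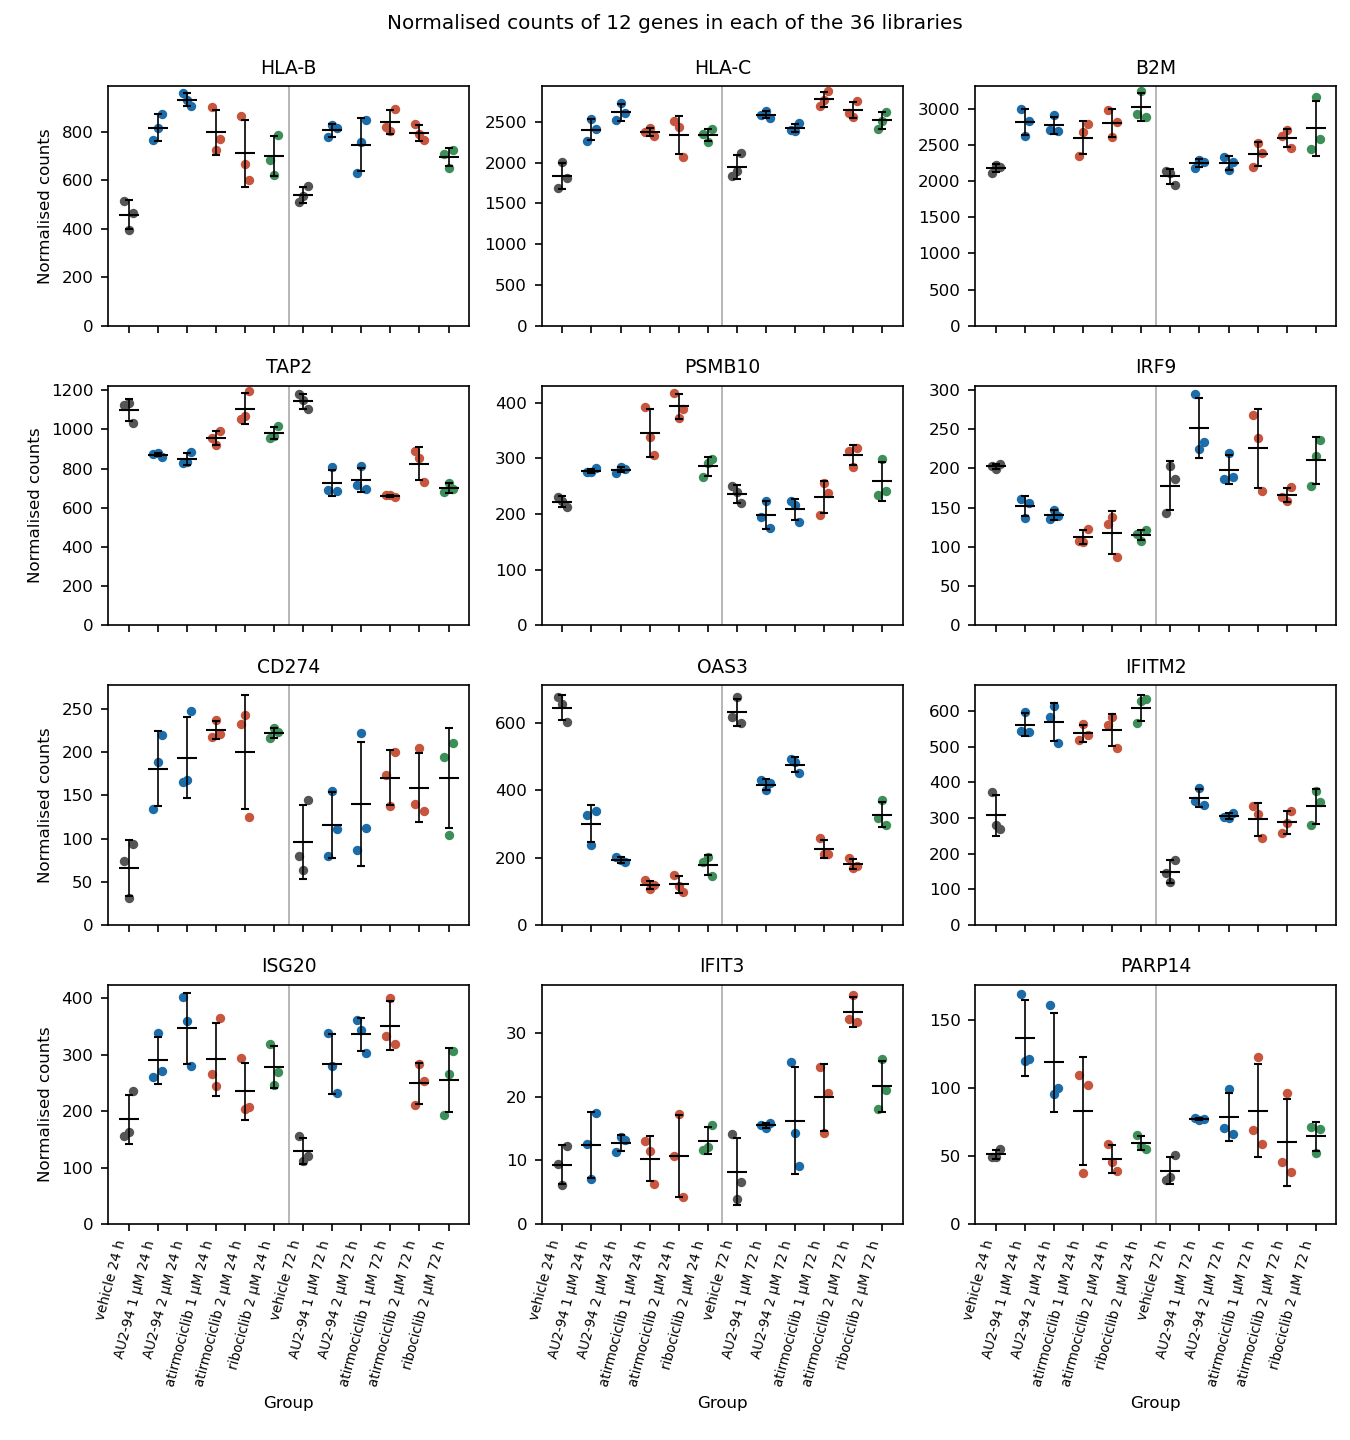
Normalised counts per library for 12 genes at 24 h and 72 h, with a point for each library and bars for the mean ± SD of 3 (vehicle grey, AU2-94 blue, atirmociclib red, ribociclib green). OAS3 lies at 605 to 679 in vehicle at 24 h and at 97.2 to 339 in treated libraries, while HLA-B lies at 396 to 514 and at 600.2 to 959.

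At 72 h HLA-B and HLA-C remained higher than in vehicle in every treatment, the IFIT genes and IFITM1 now passed in most treatments, and TAP2 joined OAS3 among the genes that fell in each treatment. Of 16341 genes tested, 48 were members, since BST2 now passed the filter. BST2 exceeded 10 in 6 libraries, those of vehicle, where it was highest, and some of 1 µM atirmociclib and ribociclib. In 1 µM AU2-94, 15 of 48 were higher and 4 lower, against 15.4% and 17.0% of all genes. The counts were 15 and 3 in 2 µM AU2-94 (14.2% and 15.3%), 17 and 4 in 1 µM atirmociclib (20.0% and 19.8%), 19 and 5 in 2 µM atirmociclib (20.9% and 19.6%) and 16 and 3 in ribociclib (15.5% and 15.4%). Without vehicle replicate 2 the count higher was 11 in 2 µM atirmociclib and 10 in ribociclib, and the count lower in 1 µM AU2-94 was 2. Without replicate 1 or 3 of 2 µM atirmociclib the count higher there was 12. With libraries scaled to equal totals it was 11, and in ribociclib the count higher was 10 with a minimum mean of 100 or a fit of only the groups compared. The members' medians were 0.25, 0.21, 0.23, 0.17 and 0.16 on the log2 scale. Averaged over the 5 treatments, 21 were higher and 4 lower (21.7% and 21.7% of all genes), with a median of 0.18 against -0.003.

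By role, between 3 and 7 of 12 class I genes were higher at 72 h and 1 lower in each treatment, with medians from 0.13 to 0.30. Of 9 receptors and factors 2 or 3 were higher and 0 or 1 lower. Of 27 interferon-stimulated genes 8 to 10 were higher and 2 or 3 lower, with medians from 0.15 to 0.29. The shares of all genes at 72 h are those given above for each comparison. In all 5 treatments at once 9 members passed upward and 2 downward, against 8.54% and 8.59% of all genes. They were HLA-B, HLA-C, TAPBP, IFNGR2, ISG20, IFIT1, IFIT2, IFITM1 and IFITM2 upward, and TAP2 and OAS3 downward. HLA-B, HLA-C, IFNGR2, IFITM2 and OAS3 thus passed in all 10 comparisons against vehicle, OAS3 as the sole lower gene. In none of the 5 treatments at 72 h did 18 members pass. In at least 1 treatment 24 members were higher and 6 lower, against 28.5% and 29.0% of all genes.

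HLA-B held 511, 534 and 575 normalised counts in vehicle at 72 h and 631 to 895 in treated libraries, without overlap. Its log2 fold changes were 0.58, 0.46, 0.63, 0.56 and 0.36 (SE 0.09; adjusted p 1.59e-05 to 0.00443), lowest in ribociclib. HLA-C held 1835, 1904 and 2113 in vehicle and 2393 to 2875 in treated libraries, again without overlap (0.32 to 0.51; adjusted p 3.87e-07 to 0.000194). HLA-F, a low-level non-classical chain, now passed in 4 of 5, with 37.8, 31.9 and 23.9 in vehicle, 58.9, 75.2 and 58.1 in 1 µM AU2-94 and 52.0, 52.3 and 73.9 in 1 µM atirmociclib. Its log2 fold changes were 1.03, 0.53, 0.91, 0.80 and 0.75, the value in 2 µM AU2-94 not passing. The call in ribociclib was lost without replicate 1 of that group or vehicle replicate 3 (0.57 to 0.91). Over 535 bases, 12.4% of its exons, HLA-F overlaps HLA-F-AS1 on the opposite strand.

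B2M passed in both doses of atirmociclib and in ribociclib at 72 h, with log2 fold changes of 0.20, 0.33 and 0.39, against 0.12 and 0.12 in AU2-94. The value in 1 µM atirmociclib (adjusted p = 0.0489) was lost without any of 5 of the 6 libraries compared, all but replicate 1 of the treated group (0.15 to 0.25). HLA-E passed in both doses of atirmociclib (0.39 and 0.27), at 2 µM not without replicate 2 or 3 of that group or vehicle replicate 1 or 2 (0.22 to 0.34).

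TAP2 and TAPBP, whose products meet at the peptide transporter, moved apart at 72 h. TAP2, at chr6:32821833-32838739, held 1179, 1152 and 1102 normalised counts in vehicle, 691, 806 and 688 in 1 µM AU2-94, 665, 665 and 656 in 1 µM atirmociclib, 892, 857 and 729.9 in 2 µM atirmociclib and 679, 727 and 696 in ribociclib. Every treated library lay below every vehicle library. Against vehicle the log2 fold changes were -0.66, -0.63, -0.79, -0.47 and -0.71 (SE 0.08; adjusted p 4.34e-07 to 0.000153). TAPBP held 1908, 1913 and 2021 in vehicle and 2308 to 2703 in treated libraries, without overlap, and was higher by 0.26 to 0.42 on the log2 scale (SE 0.05; adjusted p 2.71e-06 to 0.000635). It shares 1397 exon bases, 21% of its exons, with ENSG00000289100 on the opposite strand, which was at a mean of 90.2 normalised counts. TAP1 passed in 0 of 5 at 72 h (-0.20 to 0.20), and so did ERAP1 (-0.26 to 0.18), ERAP2 (-0.20 to 0.73) and NLRC5 (-0.53 to 0.31). PSMB10 passed in 2 µM atirmociclib alone (0.37, adjusted p = 0.0275), a call lost without replicate 1 or 3 of that group or vehicle replicate 2 or 3 (0.32 to 0.42).

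IFNGR2 held 398, 440.3 and 483 normalised counts in vehicle at 72 h and 529 to 706 in treated libraries, without overlap, with log2 fold changes of 0.37 to 0.62 (adjusted p 1.72e-05 to 0.00332). TMEM50B, its neighbour on the opposite strand, gave 0.15 to 0.73. STAT2 was higher in 4 of 5 treatments, from 1151, 994 and 1136 in vehicle to 1534, 1427 and 1350 in 2 µM AU2-94, the exception being 2 µM atirmociclib. Its log2 fold changes were 0.36, 0.40, 0.38, 0.12 and 0.31, and the call in ribociclib was lost without replicate 2 of ribociclib or of vehicle (0.24 to 0.36). IRF9 was no longer lower: it held 143, 204 and 186 in vehicle, gave 0.50, 0.17, 0.33, -0.08 and 0.25 and passed upward in 1 µM AU2-94 (adjusted p = 0.0291), not without replicate 1 of that group or of vehicle (0.35 to 0.61).

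The remaining receptor calls at 72 h were small and each rested on few libraries. IFNGR1 was lower in 1 µM AU2-94 (-0.33, adjusted p = 0.0185), not without replicate 3 of that group or vehicle replicate 2 (-0.41 to -0.22). In 2 µM atirmociclib IFNAR1 was higher (0.17, adjusted p = 0.0458) and IFNAR2 lower (-0.25, adjusted p = 0.0426). The IFNAR1 call was lost with the replicate number as a block (adjusted p = 0.0541) and without replicate 1 or 3 of atirmociclib or 1 or 2 of vehicle (0.14 to 0.21). The IFNAR2 call was lost without any library compared other than vehicle replicate 2 (-0.33 to -0.16). IRF1, IRF3 and IRF7 passed in 0 of 5, with log2 fold changes of -0.30 to 1.18, -0.21 to 0.17 and -0.03 to 0.30. At an unadjusted p under 0.05, limma counted between 2 and 5 of the 9 receptors and factors, against 39.6% to 48.0% of all genes.

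The IFIT genes, which passed in no treatment at 24 h, passed at 72 h from low levels, at which the scale of log2(normalised count + 1) understates a fold. IFIT1 held 16.3, 16.8 and 8.81 normalised counts in vehicle, 41.5, 22.4 and 23.2 in 1 µM AU2-94, 27.9, 24.4 and 22.7 in 2 µM AU2-94, 21.7, 35.1 and 22.8 in 1 µM atirmociclib, 47.0, 33.3 and 42.8 in 2 µM atirmociclib and 25.4, 25.2 and 27 in ribociclib. All treated libraries lay above all vehicle libraries. On the log2 scale the changes were 1.0, 0.84, 0.90, 1.53 and 0.90 (SE 0.30; adjusted p 0.000431 to 0.0394), highest in 2 µM atirmociclib. The calls other than that one depended on vehicle replicate 3, the lowest vehicle library. They were also lost without replicate 1 of 1 µM AU2-94, any replicate of 2 µM AU2-94, replicate 2 of 1 µM atirmociclib or any replicate of ribociclib in their own comparison, and over all omissions of 1 library their log2 fold changes lay between 0.56 and 1.15.

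IFIT2 held 29.8, 23.1 and 38.3 in vehicle and 69.8, 91.0 and 117 in 2 µM atirmociclib, and again no treated library fell to the vehicle range. Its log2 fold changes were 0.91, 0.89, 1.35, 1.57 and 0.72 (SE 0.26; adjusted p 8.93e-05 to 0.0431). The calls in AU2-94 were lost without replicate 1 of the treated group or vehicle replicate 2 (0.68 to 1.10 at 1 µM and 0.71 to 1.07 at 2 µM). That in ribociclib was lost without any ribociclib library or vehicle replicate 1 or 2 (0.54 to 0.90). IFIT3 held 14.1, 3.90 and 6.63 in vehicle, 24.8, 14.4 and 20.7 in 1 µM atirmociclib, 32.3, 36 and 31.8 in 2 µM atirmociclib and 18, 25.9 and 21 in ribociclib, and passed in these 3. On the log2 scale the changes were 1.0, 0.95, 1.31, 2.05 and 1.44, where AU2-94 did not pass. Without vehicle replicate 2 the calls in 1 µM atirmociclib and ribociclib were lost (0.93 to 1.74 and 1.06 to 1.87), the former also without replicate 1 of its group, while the call in 2 µM atirmociclib held under each omission.

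ISG20 rose in every treatment at 72 h. Vehicle libraries held 155, 112 and 120.2 normalised counts, 1 µM AU2-94 339, 279 and 232, 2 µM AU2-94 361, 343 and 304, 1 µM atirmociclib 334, 400.1 and 319, 2 µM atirmociclib 212, 284 and 252 and ribociclib 193, 266 and 306. Treated and vehicle libraries did not overlap. In log2 units the fold changes were 1.13, 1.38, 1.44, 0.95 and 0.97 (SE 0.18; adjusted p 2.63e-06 to 0.00034).

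IFITM2 held 146, 119.6 and 182 normalised counts in vehicle at 72 h and 245 to 384 in treated libraries, without overlap (0.96 to 1.27; adjusted p 3.65e-06 to 4.57e-05). IFITM1 held 17.0, 18.7 and 30.0 in vehicle and 72.5, 41.9 and 59.1 in 1 µM atirmociclib, and 14 of 15 treated libraries lay above every vehicle library. In log2 units the fold changes were 1.26, 1.18, 1.37, 0.65 and 0.89. The value in 2 µM atirmociclib (adjusted p = 0.0498) was not called with the replicate number as a block (adjusted p = 0.0586) or without any atirmociclib library or vehicle replicate 1 or 2 (0.50 to 0.89). That in ribociclib was lost without ribociclib replicate 3 or vehicle replicate 1 or 2 (0.74 to 1.13). IFITM3 passed in both doses of atirmociclib and in ribociclib by 0.20, 0.15 and 0.16, and the calls in 2 µM atirmociclib and ribociclib were lost with the replicate number as a block (adjusted p = 0.0589 and 0.0523) and without any vehicle library (0.13 to 0.16 and 0.10 to 0.20). The former was also lost without any atirmociclib library and the latter without ribociclib replicate 2.

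OAS3 remained lower at 72 h. It held 620, 678 and 600.2 normalised counts in vehicle, 431, 400.3 and 422 in 1 µM AU2-94, 495, 484 and 453 in 2 µM AU2-94, 258, 211 and 209 in 1 µM atirmociclib, 198, 169.6 and 176 in 2 µM atirmociclib and 318, 370.5 and 297 in ribociclib. No treated library reached the lowest vehicle library, and the groups ranked from 2 µM AU2-94 through 1 µM AU2-94, ribociclib and 1 µM atirmociclib to 2 µM atirmociclib without overlap of libraries. Against vehicle the log2 fold changes were -0.60, -0.40, -1.49, -1.8 and -0.95 (SE 0.10; adjusted p 9.53e-11 to 0.00615). OAS1, which makes the same activator of RNase L, went the other way at low counts. It passed in 2 µM AU2-94 (42.1, 11.6 and 20.4 against 7.70, 8.59 and 0.947 in vehicle; 2.05, SE 0.65, adjusted p = 0.0239) and in ribociclib (39.2, 22.6 and 12.3; 2.09, adjusted p = 0.0201). Vehicle replicate 3 was near 0, and without it neither call held, nor without replicate 1 of either treated group or replicate 3 of 2 µM AU2-94 (1.31 to 2.48 and 1.35 to 2.5). With the replicate number as a block, OAS1 also passed in 1 µM AU2-94 (1.63, adjusted p = 0.0345).

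BST2, a membrane protein that tethers budding virus, was lower in 4 of 5 treatments at 72 h. It held 17.4, 15.1 and 13.9 normalised counts in vehicle, 6.76, 4.38 and 7.77 in 1 µM AU2-94, 8.0, 7.17 and 4.71 in 2 µM AU2-94, 10.1, 5.63 and 5.25 in 1 µM atirmociclib, 2.15, 4.11 and 4.11 in 2 µM atirmociclib and 13.1, 10 and 8.64 in ribociclib. All treated libraries lay below all vehicle libraries. On the log2 scale the changes were -1.20, -1.13, -1.09, -1.91 and -0.52 (SE 0.40), ribociclib not passing. At 24 h, when the gene did not pass the filter, vehicle libraries held 3.21, 3.38 and 9.42. Apart from 2 µM atirmociclib, each call was lost without some library: vehicle replicate 1 or 2 or replicate 2 of 1 µM AU2-94 (-1.34 to -0.99), and any vehicle library or replicate 2 or 3 of 2 µM AU2-94 (-1.26 to -0.93) or of 1 µM atirmociclib (-1.35 to -0.93).

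CD274, higher in every treatment at 24 h, passed in 0 of 5 at 72 h. Vehicle libraries held 79.9, 63.8 and 145 normalised counts and treated libraries 80.2 to 222, which overlapped. In log2 units the fold changes were 0.30, 0.51, 0.89, 0.78 and 0.83 (SE 0.36; adjusted p 0.0542 to 0.561), and the mean of the 5 treatments gave 0.66 (95% interval 0.08 to 1.24, adjusted p = 0.0602).

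PARP14 passed in both doses of AU2-94 and in 1 µM atirmociclib at 72 h, from 32.1, 34.9 and 51.1 in vehicle to 77.7, 76.5 and 77.5 in 1 µM AU2-94. Against vehicle the log2 fold changes were 0.98, 0.99, 1.02, 0.51 and 0.71. Each of the 3 calls was lost without vehicle replicate 1, those in AU2-94 also without vehicle replicate 2, and each without a treated library, replicate 1 in 1 µM AU2-94 and replicate 2 in 2 µM AU2-94 and 1 µM atirmociclib (0.86 to 1.18, 0.81 to 1.19 and 0.71 to 1.23). PARP9 passed in both doses of AU2-94 and in 2 µM atirmociclib (0.25, 0.26 and 0.17), the last neither with the replicate number as a block (adjusted p = 0.0579) nor without any atirmociclib library or vehicle replicate 1 or 2 (0.14 to 0.22). DTX3L and TRIM21 passed in 0 of 5 (-0.02 to -0.18 and -0.00 to 0.26).

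IFI6, a mitochondrial protein, was higher in all treatments other than 2 µM atirmociclib at 72 h (0.50, 0.51, 0.60, 0.08 and 0.37), in ribociclib not without any ribociclib library or vehicle replicate 1 or 2 (0.36 to 0.39). RIGI passed in 2 µM AU2-94 and 2 µM atirmociclib (0.52 and 0.46), each dependent on vehicle replicates 2 and 3 and on the treated replicates other than replicate 1 of AU2-94 (0.34 to 0.74 and 0.28 to 0.67). ISG15 passed in 2 µM atirmociclib alone (0.22), not without replicate 1 or 2 of that group or vehicle replicate 2 (0.20 to 0.25). USP18 was lower in both doses of atirmociclib and in ribociclib (-0.64, -0.58 and -0.45), in ribociclib not without replicate 2 or 3 of ribociclib or vehicle replicate 1 (-0.58 to -0.36). With the replicate number as a block USP18 passed in 2 µM AU2-94 too (-0.35, adjusted p = 0.0373). IFI27 passed in 0 of 5 singly (1.17 to 1.42), with vehicle libraries at 11.2, 0.623 and 6.17 normalised counts. IFI35, IFI44, IFI44L, MX1, IFIH1, DDX60 and UBE2L6 likewise passed in none.

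The surrounding pathway was covered by 59 further genes, of which 54 were in the table and 40 had a mean above 10. Of 7 interferon ligand genes looked up (IFNB1, IFNG, IFNE, IFNK and IFNL1 to IFNL3), none had a mean above 10. IFNB1 averaged 0.0297 and IFNL1 0.182 normalised counts, at 0 in 35 and 33 of the 36 libraries, and the other 5 had no row in the table used. The remaining interferon genes were not examined. JAK1, the kinase common to type I and type II receptors, averaged 176 normalised counts, between 110 and 279 per library, whereas its partner TYK2 averaged 1132. At 24 h, 42 were tested. In at least 1 treatment 14 were higher and 11 lower, against 25.9% and 24.6% of all genes, and in all 5 treatments 5 were higher and 1 lower, against 9.2% and 7.82% of all genes. The upward 5 were MAVS, which relays RNA sensing, PSME1, an activator of the proteasome, and CALR, CANX and PDIA3, the chaperones of class I loading. ADAR, which edits double-stranded RNA, was the 1 lower gene.

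At 72 h, 12 of the 42 were higher and 8 lower in at least 1 treatment, against 28.5% and 29.0% of all genes. In all 5 treatments CALR, PDIA3, HLA-DMA, SP100 and LGALS3BP were higher and PSMB6, PSMB7 and HERC5 lower, 5 and 3 of 42 against 8.54% and 8.59% of all genes. PSMB6 and PSMB7 are catalytic subunits of the standard proteasome. HLA-DMA, which edits peptides on class II molecules, averaged 270 normalised counts and was the sole class II gene above 10, while HLA-DRA, HLA-DRB1, CD74 and the class II transactivator CIITA averaged 1.27, 3.43, 0.716 and 6.55. Of 22 further interferon-stimulated genes 17 were tested at 24 h, with 4 higher and 7 lower in at least 1 treatment, and at 72 h 4 were higher and 3 lower of the 17, against the same shares of all genes as above.

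The compounds were compared with each other at matched dose and time in 8 pairs, with p-values adjusted over all genes within each pair. AU2-94 is known here by its code name only, so no feature of structure is set against these differences. Between 1 µM atirmociclib and 1 µM AU2-94 at 24 h, 5 of 47 members differed, against 4.64% of all genes, each lower in atirmociclib. They were OAS3 (-1.32, 95% interval -1.67 to -0.98), OAS1 (-1.83, -2.90 to -0.76), ERAP1 (-1.04, -1.56 to -0.53), DDX60 (-0.89, -1.39 to -0.38) and DTX3L (-0.21, -0.34 to -0.09). With the replicate number as a block the count was 2, the adjusted p of OAS1, DDX60 and DTX3L being 0.0693, 0.0531 and 0.0518. The calls of OAS1, DDX60 and DTX3L were lost without any 1 of the 6 libraries compared, and that of ERAP1 without replicate 1 or 3 of AU2-94 or replicate 2 of atirmociclib (-1.19 to -0.89).

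At 2 µM and 24 h, 6 members differed between atirmociclib and AU2-94, against 9.44% of all genes. PSMB10 (0.49) and TAP2 (0.38) were higher in atirmociclib. PARP14 was lower by the widest margin (-1.27, 95% interval -1.93 to -0.62, adjusted p = 0.0146), though not called without replicate 1 of AU2-94 or replicate 3 of atirmociclib (-1.43 to -1.03). OAS3 (-0.70), HLA-B (-0.41, adjusted p = 0.0491) and PARP9 (-0.29) were lower as well. The HLA-B call was lost without any of 5 of the 6 libraries, all but replicate 1 of atirmociclib (-0.56 to -0.30), and that of OAS3 without replicate 3 of atirmociclib (-0.85 to -0.55). For HLA-C the difference was -0.17 with a 95% interval of -0.32 to -0.02, for CD274 0.01 (-0.66 to 0.68) and for IRF9 -0.28 (-0.58 to 0.03), none of which passed.

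Ribociclib and AU2-94 at 2 µM and 24 h differed in 0 of 47 members, against 0.0372% of all genes, with 5 members at an unadjusted p under 0.05 by limma (12.6% of all genes). The interval of the difference nevertheless reached from -0.47 to 0.21 for OAS3, from -0.69 to -0.16 for HLA-B and from -1.60 to -0.29 for PARP14, and these intervals are all that bounds the difference. Between atirmociclib and ribociclib at 2 µM and 24 h, PSMB10 was higher (0.46, 95% interval 0.26 to 0.66) and PARP9 lower (-0.25, -0.39 to -0.11) in atirmociclib, against 4.64% of all genes. The PARP9 call was lost with the replicate number as a block (adjusted p = 0.051) and without replicate 2 or 3 of either group (-0.30 to -0.21).

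At 72 h and 1 µM, OAS3 alone differed between atirmociclib and AU2-94 (-0.89, 95% interval -1.11 to -0.67, adjusted p = 1.4e-05), against 8.24% of all genes. At 2 µM, 8 of 48 members differed, against 19.8% of all genes. OAS3 was lower in atirmociclib (-1.40, -1.61 to -1.18, adjusted p = 1.86e-08), followed by IFI6 (-0.43), IFNAR2 (-0.31) and STAT2 (-0.27). PSMB10 (0.56, 0.29 to 0.82), TAP1 (0.40), ISG15 (0.26) and IFNAR1 (0.19, adjusted p = 0.048) were higher. The IFNAR1 call was lost with the replicate number as a block (adjusted p = 0.0582) and without any library compared but replicate 2 of AU2-94 (0.15 to 0.25). Apart from OAS3 and PSMB10, each of these calls was lost without at least 3 of the 6 libraries taken singly, among them replicate 1 or 2 of atirmociclib for all 6 genes.

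Ribociclib differed from AU2-94 at 2 µM and 72 h in OAS3 alone (-0.54, 95% interval -0.76 to -0.33, adjusted p = 0.00704), against 3.34% of all genes. In a fit of only these 2 groups the call was lost (adjusted p = 0.0658). Atirmociclib differed from ribociclib in 3 members, against 9.18% of all genes. OAS3 was lower (-0.85, -1.07 to -0.64), as was BST2 at low counts (-1.40, -2.23 to -0.56), and IFIT2 was higher (0.85, 0.30 to 1.40, adjusted p = 0.0487). The IFIT2 call was lost without any of 5 of the 6 libraries, all but replicate 1 of atirmociclib, and the BST2 call without replicate 1 of atirmociclib or replicate 1 or 2 of ribociclib (0.67 to 1.04 and -1.52 to -1.16). In such fits of 2 groups the 24 h difference of OAS3 between atirmociclib and AU2-94 at 2 µM was lost too (adjusted p = 0.0548), and the other 4 OAS3 calls held. OAS3 was thus the member that differed in the greatest number of pairs, 6 of 8 (4 of 8 in fits of 2 groups), and in each of the 6 the named order was the same, lower in atirmociclib than in AU2-94 or ribociclib and, at 72 h, lower in ribociclib than in AU2-94. Fits of 2 groups also lost, at 24 h, OAS1 and DTX3L between the compounds at 1 µM, HLA-B and PARP9 between 2 µM atirmociclib and AU2-94, and PARP9 between atirmociclib and ribociclib. At 72 h they lost IFI6 and IFNAR1 between 2 µM atirmociclib and AU2-94, and IFIT2 between atirmociclib and ribociclib, where BST2 did not pass the filter on low values.

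**Figure D4:**
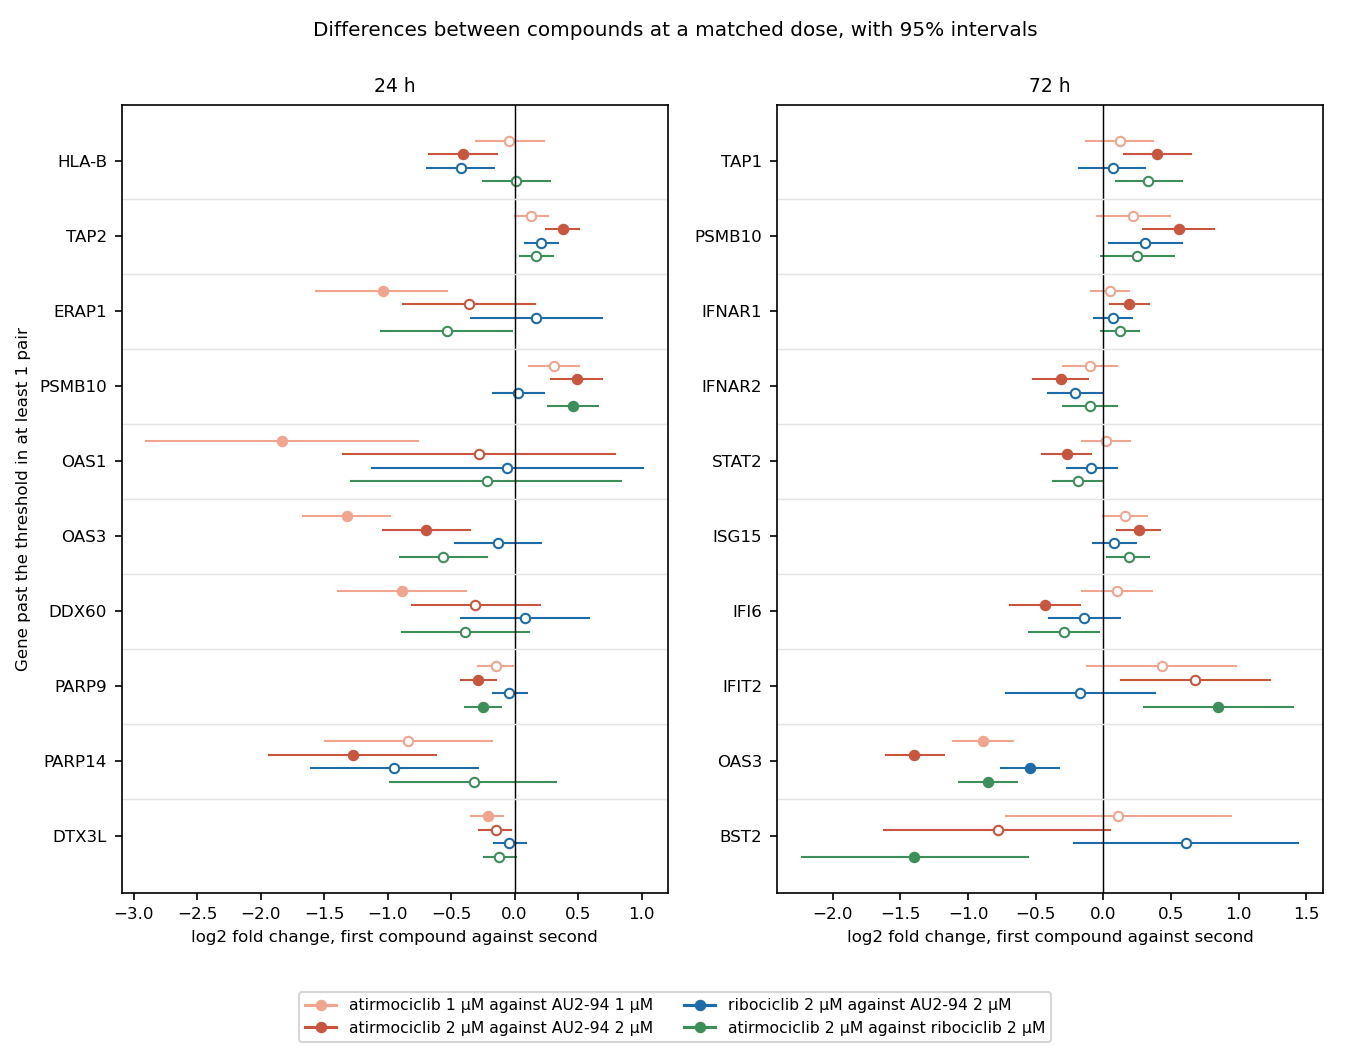
Difference between compounds at the same dose, as log2 fold change with its 95% interval, for the genes past the threshold in at least 1 pair at 24 h (left) and 72 h (right), with filled symbols where the adjusted p was at most 0.05. OAS3 in 2 µM atirmociclib against 2 µM AU2-94 at 72 h lies at -1.40, with an interval of -1.61 to -1.18.

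The higher dose of a compound differed from the lower in few of these genes. At 24 h, 0 of 47 members differed between 2 and 1 µM of AU2-94, against 0.409% of all genes, and 0 differed between the doses of atirmociclib, against 0.0124%. By limma 1 and 5 members were at an unadjusted p under 0.05 (8.14% and 8.87% of all genes). At 72 h, 0 of 48 differed between the doses of AU2-94, against 0.0% of all genes, with 2 at an unadjusted p under 0.05 (4.48% of all genes). Between the doses of atirmociclib 1 member passed, against 2.19% of all genes, with 10 at an unadjusted p under 0.05 (15.9% of all genes). This was IFI6, at 159.9, 179 and 172 normalised counts in 1 µM and 105, 134 and 117 in 2 µM, without overlap (-0.52, 95% interval -0.78 to -0.26, adjusted p = 0.0342). That call was lost with the replicate number as a block (adjusted p = 0.0555), in a fit of only the 2 groups, and without any library compared but replicate 2 of 2 µM atirmociclib (-0.61 to -0.44). For OAS3 the dose difference at 24 h was -0.62 in AU2-94 (95% interval -0.97 to -0.28) and 0.00 in atirmociclib (-0.34 to 0.35), neither of which passed.

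Between vehicle at 72 h and at 24 h, 3 of 49 members differed, against 7.5% of all genes. IFITM2 was lower at 72 h (146, 119.6 and 182 against 374, 281 and 268 normalised counts; -1.04, adjusted p = 3.44e-06), without overlap. IFITM3 was higher by 0.21 and BST2 by 1.51. The BST2 call was lost without any vehicle library but replicate 3 at 24 h (1.28 to 1.93), and that of IFITM3 without replicate 1 at either time or replicate 2 at 72 h (0.18 to 0.24). The class I chains did not pass: HLA-B gave 0.24 (95% interval 0.01 to 0.47), HLA-C 0.09 (-0.04 to 0.22) and B2M -0.08 (-0.23 to 0.08).

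The mean effect of the 5 treatments differed between 72 h and 24 h in 13 of 49 members, 7 upward and 6 downward, against 29.4% of all genes. IRF9 moved from -0.68 at 24 h to 0.23 at 72 h, OAS3 from -1.92 to -1.05, and IFIT2 from 0.24 to 1.09. In the other direction, TAP2 moved from -0.21 to -0.65, PSMB10 from 0.49 to 0.00 and CD274 from 1.73 to 0.66. Of the genes that passed in all 10 comparisons, OAS3 alone had a mean effect that differed between the times. For HLA-B the difference of the mean effects was -0.26 (95% interval -0.51 to -0.01), for HLA-C 0.01 (-0.13 to 0.15), for IFNGR2 0.04 (-0.16 to 0.24) and for IFITM2 0.20 (-0.10 to 0.50). IFIT1 (0.72, -0.03 to 1.47) and IFIT3 (1.06, 0.13 to 1.99), which passed at 72 h and not at 24 h, were not shown to differ between the times. TRIM21 passed this test with the replicate number as a block alone (-0.36, adjusted p = 0.0396).

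**Figure D5:**
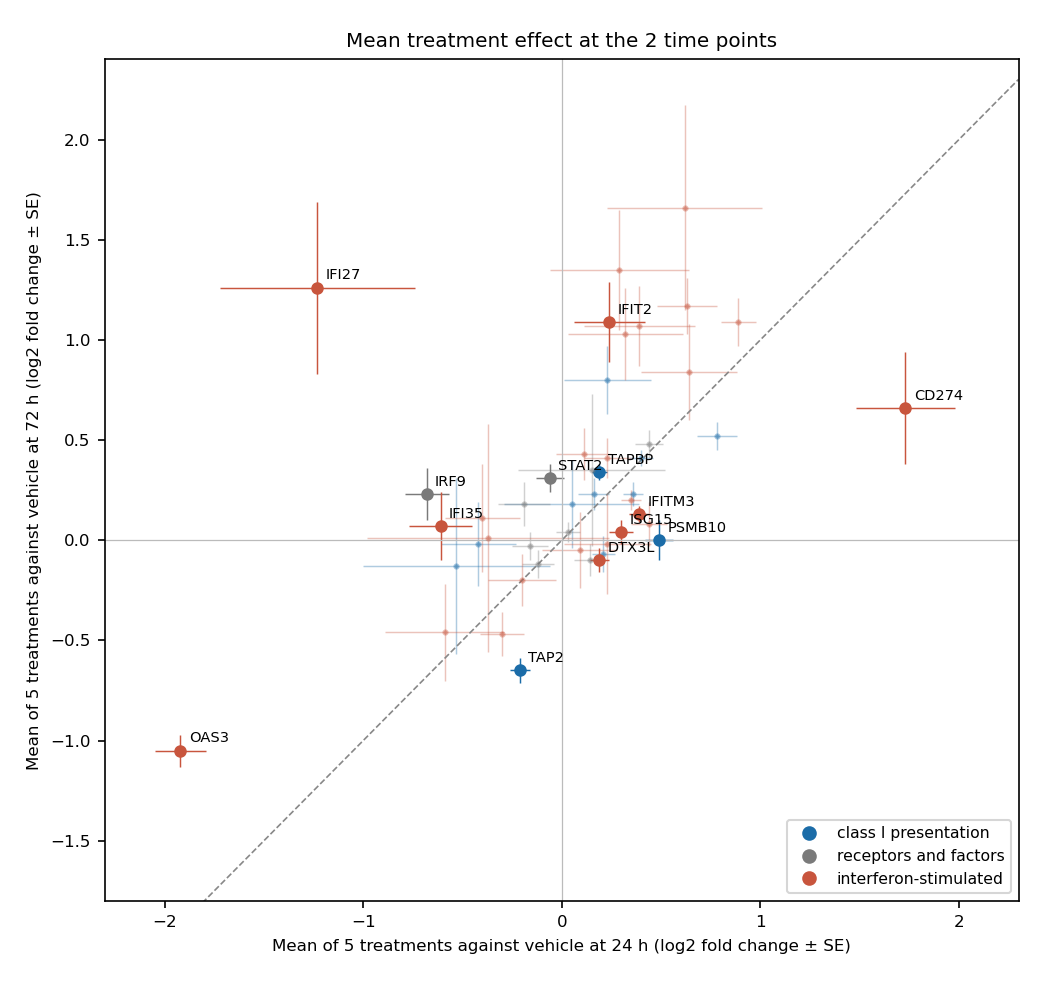
Mean log2 effect of the 5 treatments against vehicle at 24 h (x axis) and 72 h (y axis), with SE, for the tested genes; the 13 labelled genes passed the test of the difference between the times and the dashed line marks equal effects. OAS3 lies at -1.92 and -1.05, CD274 at 1.73 and 0.66, and IRF9 at -0.68 and 0.23.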

How the data were processed

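RNA sequencing of 36 LNCaP libraries in 12 groups of 3 was used. Total RNA was extracted with TRIzol and made into libraries with a total RNA kit including 12 cycles of amplification. Per the submitters' processing notes and the methods, reads passed through nf-core/rnaseq with STAR 2.6.1d and GRCh38 (hg38), and DESeq2 was used. The deposited values are the authors' normalised counts per gene, non-whole numbers that are treated as a signal. The annotation release, the counter and its strand setting are not given in the sources used here. Because the deposited signal is normalised, no count model was run (the quasi-likelihood count test planned for raw counts was set aside), and the depth of each library is unknown.

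Identifiers were matched to symbols with GENCODE v44. limma 3.58.1 in R 4.3.3 was fitted to log2(normalised count + 1) with a mean-variance trend, keeping genes at 10 or more normalised counts in at least 3 libraries of the fit. The 6 groups of a time point shared a fit, and all 12 groups shared another for comparisons between times. p-values were two-sided and adjusted by Benjamini-Hochberg over all genes within a comparison, and a gene was called at 0.05 or less. The p-values set a difference of means against the spread between these libraries. That spread was shared over the groups of a fit and drawn toward the trend over all genes. The members and lists were chosen with earlier results of these data known, and the genes named with values were those called in all 5 treatments of a time point in a direction, those called with an absolute log2 fold change of 1 or more in any treatment, the 3 members of each role with the highest mean and those at or under 10. Other genes are named where a call count turned on them, and 2 cell type markers are not reported here.

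The labels number the replicates of each group, so a fit with the replicate number as a block was also made. Deviations from the group means were no more alike in libraries of the same number. Their mean correlation was 0.0018 at 24 h, with 45 pairs lying between -0.09 and 0.11, where libraries of unlike number had -0.0009. The corresponding values at 72 h were -0.0022 (from -0.08 to 0.05) and 0.0011. The alternatives were pseudocounts, filters, scalings, the block, no trend, a fit of only the groups compared and leaving out each library.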

Additional observations from a re-analysis of the deposited data

Results flagged for a closer look

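In 13 of 49 tested members the mean effect of the 5 treatments differed between 72 h and 24 h by limma's interaction contrast, against 29.4% of all genes. Treatment time and seeding density changed together and cannot be told apart, and the groups share their vehicle libraries within a time point.

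Toward higher values at 72 h, IFI27 changed by 2.49 on the log2 scale (SE 0.65, adjusted p = 0.00382), from -1.23 to 1.26. This gene lies near the floor, and the call was lost without vehicle 72 h replicate 2 (1.64 to 3.10 over the omissions of 1 library). IRF9 changed by 0.91 (adjusted p = 0.000146) and OAS3 by 0.87 (adjusted p = 3.65e-05). IFIT2 changed by 0.85 (adjusted p = 0.0171) and IFI35 by 0.68 (adjusted p = 0.025). The IFIT2 call was lost without vehicle 24 h replicate 1 or 2 or vehicle 72 h replicate 2 (0.68 to 1.17), and that of IFI35 without vehicle 24 h replicate 1 or 2 or vehicle 72 h replicate 2 or 3 (0.61 to 0.81). STAT2 changed by 0.37 (adjusted p = 0.00531) and TAPBP by 0.16 (adjusted p = 0.0311), the latter not without vehicle replicate 1 or 3 at 24 h or 1 or 2 at 72 h (0.14 to 0.19).

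Toward lower values at 72 h, CD274 changed by -1.07 (SE 0.40, adjusted p = 0.0409). Its call was lost without any 1 of 10 libraries, 3 of vehicle (24 h replicate 2, 72 h replicates 1 and 3) and 7 treated ones: 24 h replicate 3 of each dose of AU2-94 and replicates 1 and 2 of 2 µM atirmociclib, and 72 h replicate 1 of 1 µM AU2-94, replicate 2 of 1 µM atirmociclib and replicate 3 of 2 µM atirmociclib (-1.39 to -0.59). PSMB10 changed by -0.49 (adjusted p = 0.00201) and TAP2 by -0.44 (adjusted p = 5.9e-05). DTX3L changed by -0.29 (adjusted p = 0.00214), IFITM3 by -0.26 (adjusted p = 0.00172) and ISG15 by -0.26 (adjusted p = 0.0106).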

How the results depend on the processing

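Of 6545 values of single genes under 10 alternatives, 6335 kept direction and side of the threshold, 159 were no longer called, 51 became called and 0 changed sign while called. With 1 library left out, the figures were 6384, 317, 79 and 0 of 6780. Leaving out 1 library lost calls at values near 10 normalised counts (IFI27, OAS1, IFIT3, BST2). It also lost calls at high values, as for B2M and IFNAR1, with means of 2536 and 2025 over all libraries. Depth is unknown, and its part in these losses was not tested. Under another scaling, the largest absolute median log2 fold change of all genes in any comparison was 0.014 (TMM factors), 0.062 (quantile normalisation) and 0.105 (equal totals).

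Of 375 counts of called members, 352 stayed within 1.5 times. The remaining 23 follow, and their cause was not tested except that fewer groups or genes entered some fits. Members lower in 1 µM AU2-94 at 24 h went from 5 to 2 with no filter and 3 with a minimum mean of 100, and members lower in 2 µM atirmociclib from 6 to 3 with quantile normalisation. Members higher at 72 h went from 19 to 11 in 2 µM atirmociclib with equal totals, from 16 to 10 in ribociclib with a minimum mean of 100 and 10 with only the groups compared, and from 21 to 13 for the mean treatment with a minimum mean of 100. Between 1 µM atirmociclib and AU2-94 at 24 h the count went from 5 to 2 with no filter, 2 with the replicate block, 2 with no trend and 3 with only the groups compared, and at 72 h from 1 to 2 with no filter. Between 2 µM atirmociclib and AU2-94 at 24 h it went from 6 to 3, between 2 µM atirmociclib and ribociclib at 24 h from 2 to 1 and between ribociclib and AU2-94 at 72 h from 1 to 0, each with only the groups compared. Between atirmociclib and ribociclib at 72 h it went from 3 to 1 with no filter, 1 with a minimum mean of 100 and 1 with only the groups compared. Between the doses of atirmociclib at 72 h it went from 1 to 0 with no filter, 2 with a minimum mean of 100, 0 with quantile normalisation and 0 with only the groups compared. Between vehicle at 72 h and 24 h it went from 3 to 5 with equal totals.

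With 1 library left out, counts at 24 h ranged over 2 to 4 (lower in 1 µM AU2-94, from 5), 3 to 6 (lower in 1 µM atirmociclib, from 7), 3 to 6 (lower in 2 µM atirmociclib, from 6) and 2 to 4 (lower in ribociclib, from 2). Between compounds and doses at 24 h they ranged over 1 to 3 (1 µM atirmociclib and AU2-94), 3 to 7 (2 µM atirmociclib and AU2-94), 1 to 3 (atirmociclib and ribociclib) and 0 to 1 (doses of AU2-94). At 72 h they ranged over 2 to 4 (lower in 1 µM AU2-94, from 4), 11 to 18 (higher in 2 µM atirmociclib, from 19) and 10 to 14 (higher in ribociclib, from 16). Between compounds, doses and times they ranged over 1 to 2 (1 µM atirmociclib and AU2-94), 4 to 7 (2 µM atirmociclib and AU2-94), 1 to 3 (ribociclib and AU2-94), 1 to 3 (atirmociclib and ribociclib), 0 to 1 (doses of atirmociclib) and 1 to 3 (vehicle at 72 h and 24 h). The lowest of these were without vehicle 24 h replicate 1 for atirmociclib, without vehicle 72 h replicate 2 for atirmociclib and ribociclib, and without replicate 1 or 3 of 1 µM AU2-94 between it and atirmociclib at 24 h.

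With the replicate block, the changed calls are those given in the report, and no count other than the 1 named moved by over 1.5 times.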
